A study of Homo sapiens with 6 samples.

Results

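DEAD and DEAH box RNA helicases were examined in H1975 cells, a human lung adenocarcinoma line, by RNA-seq, with 3 libraries from cells with a YTHDC2 knockout and 3 from WT cells. The knockout cells carried the YTHDC2 knockout as the 1 labelled genetic change, and no drug or time course is given for either group. Members were all genes whose symbol is DDX or DHX followed by a number, with or without a letter. The 4 interferon-inducible helicases DDX58, DDX60, DDX60L and DHX58 were left out by rule. This gave 51 of the 16760 genes in the table, 36 with a DDX and 15 with a DHX symbol. Values were FPKM, fragments scaled to gene length and library depth. Whole fragments recovered from these values numbered 32132736 to 33824967 in each knockout library and 27201555 to 30337712 in each WT library. The study calls its replicates biological without saying how libraries of 1 group were kept apart, and the p-values measure the spread between these libraries. They also do not say whether the knockout cells were 1 clone or a pool.

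Helicases of this family use ATP to unwind short RNA duplexes or to strip proteins from RNA. DEAD box proteins act locally in splicing, ribosome assembly, export, translation and decay, while many DEAH box proteins move along RNA and drive the remodelling steps of the spliceosome and of ribosome precursors. YTHDC2 is itself a DEAH box helicase that also carries a YTH domain, which binds m6A, and its nearest relatives include DHX9, DHX29, DHX30, DHX36, DHX57 and DHX34. The family takes its name from motif II of the helicase core, in which the aspartate and glutamate residues take part in ATP hydrolysis.

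Motif II is shown for the genes on which the results below turn. Each line is 24 bases of the coding strand, 5′ to 3′, of a GENCODE 29 transcript, and the capitals are the 4 codons of the motif. The last capital codon encodes aspartate in a DEAD box and histidine in a DEAH box.
DHX9: attgtaGATGAAATACATgaaaga
YTHDC2: atcgtgGATGAAGTGCATgaaagg
DHX36: gtacttGATGAAATCCATgaaaga
DDX5: gtccttGATGAAGCAGATagaatg
DDX47: gtcatgGATGAAGCCGACcgaata
DDX23: gttctgGATGAGGCAGATaggatg
DDX39B: attttgGATGAATGTGATaagatg
DDX19A: gttctgGATGAGGCTGATgtcatg
DDX19B: gttctgGATGAGGCTGATgtcatg
All lie in coding exons of GRCh38. DHX9 is at chr1:182867011-182867034 (plus strand), DHX36 at chr3:154304924-154304947 (minus), DDX5 at chr17:64503239-64503262 (minus) and DDX47 at chr12:12822036-12822059 (plus). DDX23 is at chr12:48833418-48833441 (minus), DDX39B at chr6:31536513-31536536 (minus), DDX19A at chr16:70366195-70366218 (plus) and DDX19B at chr16:70329402-70329425 (plus). The YTHDC2 stretch, on chromosome 5, is split between 2 exons. The search asked for more than these 4 codons. It required 2 hydrophobic residues before them. A histidine form had to be followed by glutamate, and an aspartate form by methionine or leucine shortly after. A motif of this form was found in 48 of the 51 members. It ended in an aspartate codon in 34 members, all with DDX symbols, and in a histidine codon in 14 members, all with DHX symbols. None was found in DDX11 and DHX32, which does not show that they lack motif II, since a copy with other flanking residues would be missed. DDX17 was not searched, since only coding sequences that start with ATG were read. The copies in DDX19A and DDX19B were identical over all 24 bases.

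The knockout was checked first in YTHDC2. The guide that the study gives is shown with its PAM in capitals.
YTHDC2 guide: ctgactgagtcgatgaataaAGG
Its 20 bases match the opposite strand of coding exon 2 of 30 at chr5:113515314-113515333 (GRCh38). YTHDC2 measured 7.82, 8.92 and 8.14 FPKM in the knockout libraries and 13.0, 17.1 and 201 FPKM in the WT libraries. All knockout values were below all WT values, and WT replicate 3 stood far above the other WT libraries (p = 0.1 by a two-sided exact permutation test, which cannot go lower with 3 against 3). Fitted with limma, YTHDC2 had a log2 fold change of -2.09 (adjusted p = 0.228), which became -0.84 when WT replicate 3 was left out (adjusted p = 0.00223). A guide of this kind cuts the gene and need not remove its RNA, so the level alone does not check for loss of the protein. For the protein, the study reports immunoblots in which its YTHDC2 antibody gave a band in WT cells and none in knockout cells. For the identity of the cells, KRT8 and KRT18, keratins of simple epithelium, averaged 90.1 and 67.0 FPKM, with log2 fold changes of 0.24 and 0.27 (limma adjusted p = 0.00711 and 0.00175). Of the rest of the list, KRT19, EPCAM and KRT7 averaged below 1 FPKM over the 6 libraries and were called lower. MUC1, CDH1, NKX2-1, NAPSA and EGFR averaged 0.264, 2.17, 1.56, 1.24 and 2.04 FPKM and were not called. MET averaged 7.37 FPKM and fell (log2 fold change -0.35, limma adjusted p = 0.0172). KRT19 averaged 0.0142 ± 0.0123 FPKM over the 3 knockout libraries and 1.022 ± 0.248 FPKM over the 3 WT libraries (± SD, adjusted p = 2.82e-05 by limma). EPCAM was 0.246 ± 0.0453 and 0.818 ± 0.139 FPKM (adjusted p = 0.000679 by limma), and KRT7 was 0.0593 ± 0.0514 and 0.201 ± 0.0560 FPKM (adjusted p = 0.0234 by limma). Of 11 lung epithelial markers in the table, 4 averaged below 1 FPKM, and the summed level of the 11, most of it KRT8 and KRT18, was 181 to 190 FPKM in knockout and 156 to 168 FPKM in WT. The part of these marker differences in the helicase results was not tested. Of 5 fibroblast markers 4 averaged below 1 FPKM, while COL1A1 averaged 6.12 FPKM. The sum of the 5 was 6.64 to 6.85 FPKM in knockout and 7.57 to 8.65 FPKM in WT. These markers alone do not establish the identity of the line. The leukocyte markers summed to at most 1.91 FPKM and the endothelial markers to at most 0.0641 FPKM in any library.

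Helicase transcripts were lower in YTHDC2 knockout cells more often than they were higher. Of 50 members in the test (DDX43, above 0 in 1 library, was not tested), 29 fell, 4 rose and 17 were not called at a limma adjusted p under 0.05. The background over all 15441 genes tested was 26.2% lower and 16.6% higher, against 58% and 8% of the members. Most changes were small. Past an absolute log2 fold change of 1 as well, 1 member was lower, against 1.99% of all genes, and 0 were higher, against 0.732%. No member was above a log2 fold change of 1 at an unadjusted p under 0.05 (0 members), and limma voom on the recovered fragments also called 0 higher past both thresholds, against 1.09% of all genes. The median log2 fold change (knockout to WT, on the log2(FPKM + 0.1) scale) was -0.28 for the members and -0.09 for all genes tested. In total RNA from a culture, fewer cells with a transcript and less of it per cell cannot be told apart.

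The lower values were seen library by library. For 33 members all 3 knockout values were below all 3 WT values (33.1% of all genes), for 5 members all were above (20.7%), and for 13 members the groups overlapped. The 33 include DDX4 and DDX3Y, which had at most 2 recovered fragments in any library and were not called. Summed over the family, helicase FPKM was 1952, 1912 and 1954 in the knockout libraries and 2425, 2504 and 2371 in the WT libraries. The knockout mean of 1939 ± 23.97 FPKM stood against a WT mean of 2433 ± 66.8 FPKM (n = 3 each, ± SD), or 0.466% ± 0.00304 and 0.612% ± 0.0207 of the FPKM of all listed genes. The WT libraries thus lay above the knockout libraries without overlap. The same was seen without WT replicate 3, the library with the high YTHDC2 level. Among the 46 members that averaged at least 1 FPKM, the highest WT value was in replicate 1 for 17, in replicate 2 for 19 and in replicate 3 for 10, and without replicate 3 the test called 28 members lower and 4 higher, against 21.3% and 14.8% of all genes.

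The background differed with expression level. Among genes averaging at least 1 FPKM, 31.7% of 11121 were called lower and 21.6% higher in the same test, and 28 and 4 of the 46 members at that level. The median log2 fold change was -0.30 for these members and -0.07 for all such genes.

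**Figure D1:**
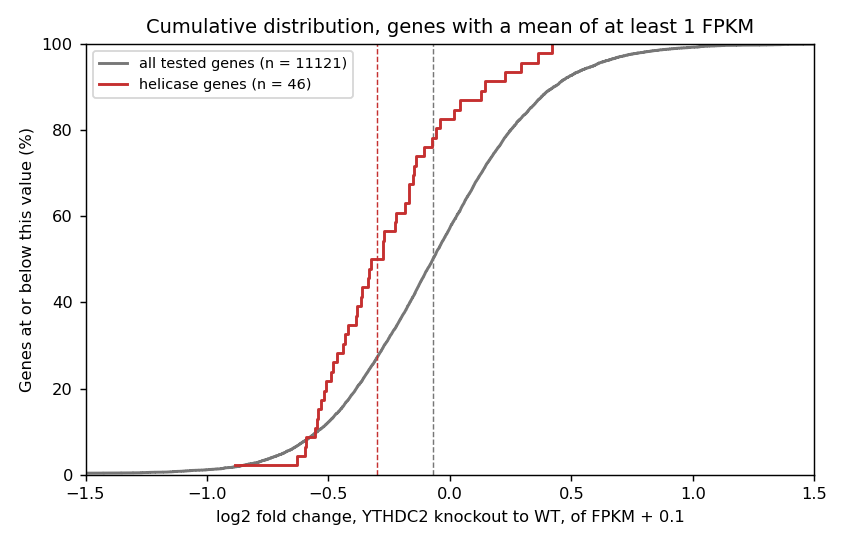
Cumulative share of genes (y axis, percent) at or below each log2 fold change of FPKM + 0.1, YTHDC2 knockout to WT (x axis), for 46 helicase genes and 11121 genes that averaged at least 1 FPKM; dashed lines are the medians and values beyond the axis are not drawn. The helicase curve lies to the left of the curve of all genes, with medians of -0.30 and -0.07.

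Scaling changed how many members were called. Median scaling moved the median of all genes by more than 0.1, from -0.09 to 0.04, and called 22 members lower and 6 higher, against 16.3% lower and 23.5% higher of all genes. With a correction for GC content 26 members were lower and 5 higher (18.7% and 18.8% of all genes). The member median stayed below the median of all genes by 0.17 to 0.27 on the log2 scale under each scaling, pseudocount, filter and left-out library listed in the processing account, and by 0.19 in the values reported here. In all, 18 of the 29 lower calls and 3 of the 4 higher calls held in every one of 17 alternatives in which the gene was tested. Not counted among these was the test against a fold change above 0.2 on the log2 scale. That test called 18 members lower and 0 higher, against 11.1% and 7.06% of all genes.

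**Figure D2:**
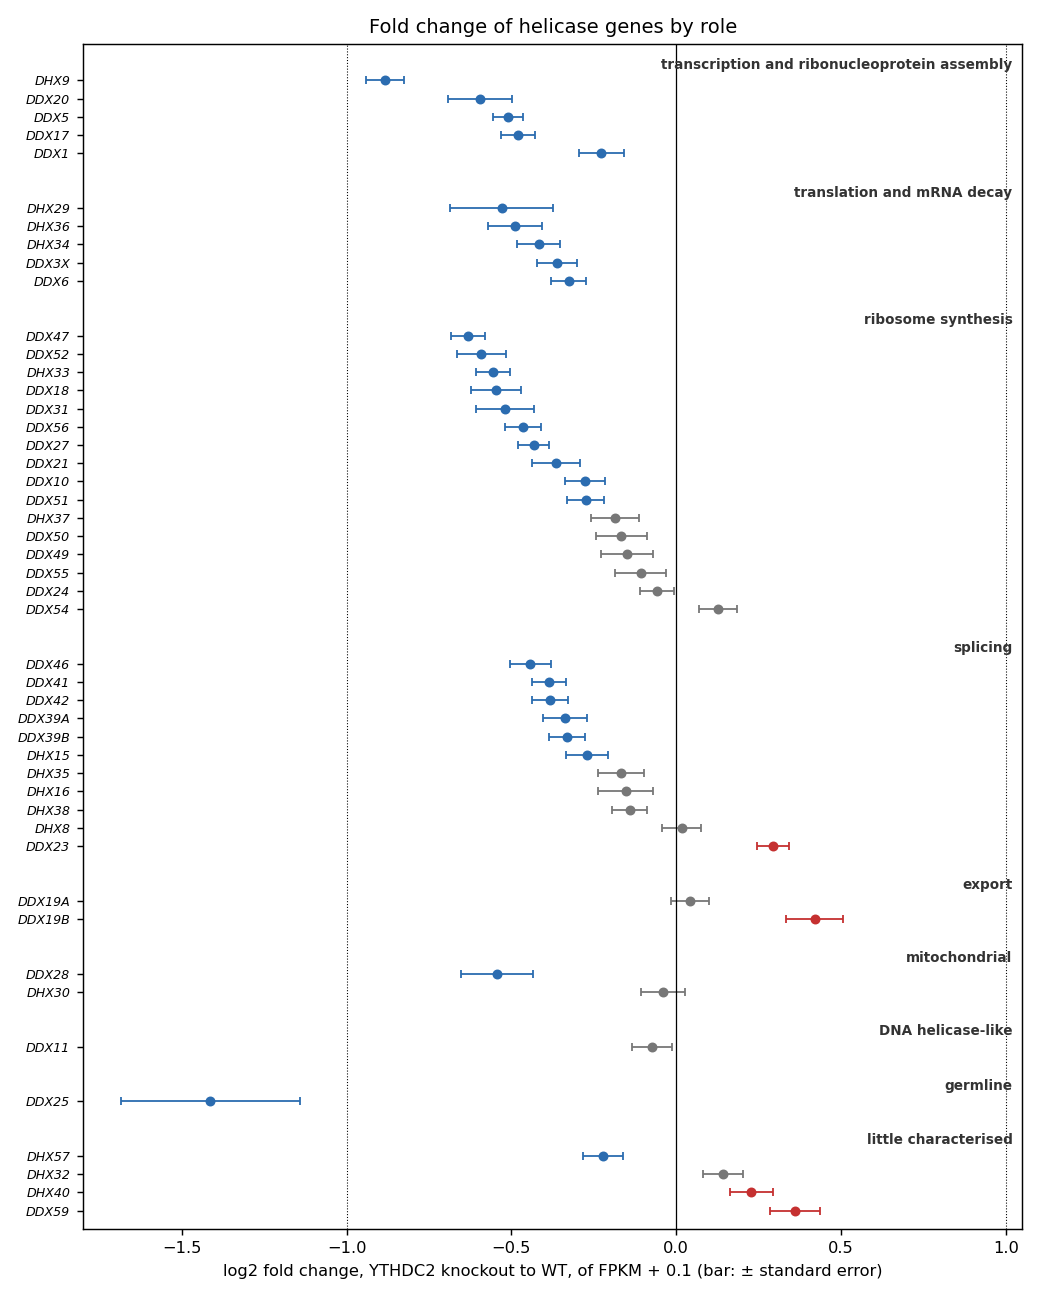
Log2 fold change of each helicase gene, knockout to WT, of FPKM + 0.1 (x axis; bars are ± 1 standard error from limma), grouped by role, with genes called lower in blue, higher in red and not called in grey at an adjusted p under 0.05. Dotted lines mark a log2 fold change of 1 in either direction, and members averaging below 1 FPKM other than DDX25 are not drawn. Genes of transcription and ribonucleoprotein assembly all lie to the left of 0, and the red points are DDX23, DDX19B, DHX40 and DDX59.

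By role, counts of lower members can be read against 31.7% of all genes of at least 1 FPKM called lower and 21.6% called higher. The 5 members that act in transcription and in the assembly of RNA with protein all fell, with a median log2 fold change of -0.51. DHX9, or RNA helicase A, unwinds structured RNA in the nucleus and bridges factors of transcription. It measured 97.2, 96.5 and 95.4 FPKM in knockout and 175, 194 and 165 FPKM in WT. The knockout libraries were close together and all far below the WT libraries, at 54.1% of the WT mean (SE below is the standard error of a log2 fold change). DHX9 had the largest fall among members of at least 1 FPKM (log2 fold change -0.88, SE 0.06, adjusted p = 2.82e-05 by limma), and its value after GC correction was -0.67. DDX20, also known as Gemin3, belongs to the SMN complex that assembles spliceosomal snRNPs. Its levels were 13.9, 13.8 and 13.6 FPKM in knockout and 17.8, 23.8 and 21.3 FPKM in WT, again without overlap (log2 fold change -0.60, SE 0.10, adjusted p = 0.00132 by limma, and -0.24 after GC correction).

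DDX5 and DDX17 are close paralogs that act as co-regulators of transcription and in microRNA processing. DDX5 was among the 3 most abundant members, at 118, 115 and 117 FPKM in knockout and 161, 175 and 163 FPKM in WT, and DDX17 stood at 113, 114 and 106 FPKM in knockout and 147, 160 and 158 FPKM in WT. Both fell, by 0.51 (limma adjusted p = 9.17e-05) and 0.48 (limma adjusted p = 0.000175) on the log2 scale, and after GC correction the values were -0.33 and -0.30. DDX1, which takes part in tRNA ligation, was 64.3, 69.5 and 69.4 FPKM in knockout and 71.6, 85.3 and 81.4 FPKM in WT. Its call was the weakest of the 5 (log2 fold change -0.23, limma adjusted p = 0.0251) and was lost with median scaling, with GC correction, where the value was -0.02, in limma without trend and robust moderation, and without knockout replicate 1 or 3 or WT replicate 2 or 3, where the adjusted p was 0.0547 to 0.1002.

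**Figure D3:**
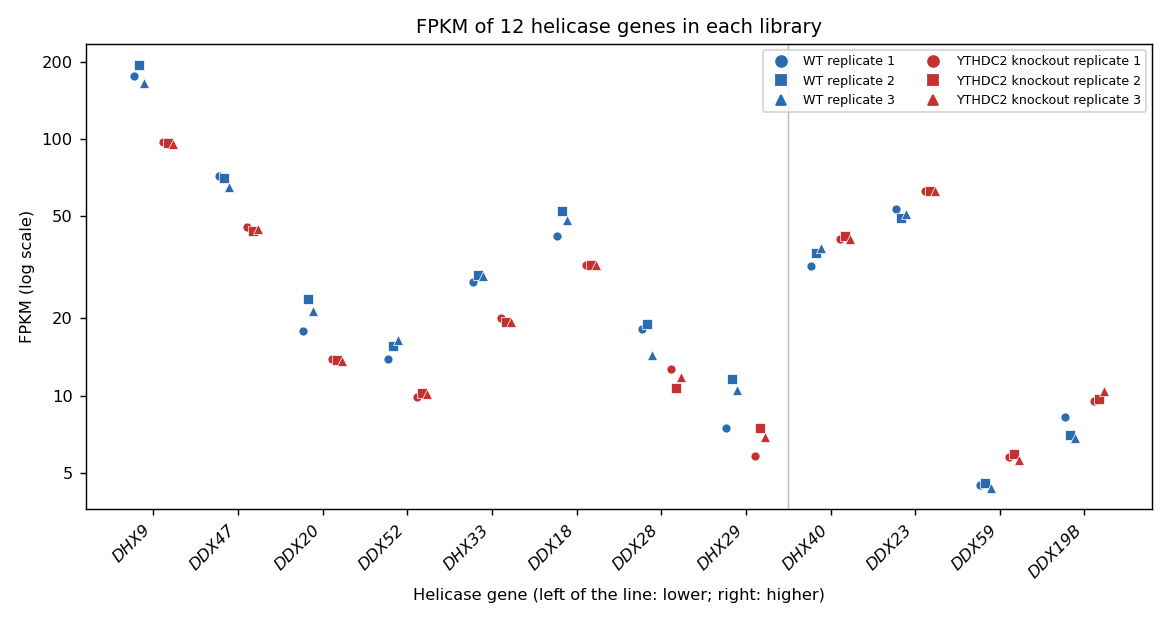
FPKM on a log scale (y axis) in each of 3 WT and 3 knockout libraries for the 8 members of at least 1 FPKM with the largest falls and the 4 that rose (x axis). The WT and knockout points of each gene do not overlap, and the knockout points lie closest together for DHX9, DDX20, DDX18 and DDX23.

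Translation and mRNA decay had 6 tested members, of which 5 fell and 1, DDX3Y, was not called (26.2% of all genes tested were lower). DDX3X, which helps initiate translation on structured leaders, was 75.2, 79.0 and 72.6 FPKM in knockout and 89.3, 103 and 99.7 FPKM in WT. It fell by 0.36 on the log2 scale (limma adjusted p = 0.00169), with -0.11 after GC correction and -0.23 with median scaling, and its Y-linked copy DDX3Y is not described further. DHX36 unwinds G-quadruplexes in mRNA and is a relative of YTHDC2. It measured 8.63, 9.85 and 8.98 FPKM in knockout and 11.8, 13.8 and 13.0 FPKM in WT, with no overlap (log2 fold change -0.49, limma adjusted p = 0.00153, and -0.16 after GC correction, adjusted p = 0.0460). DHX34, a factor of nonsense-mediated decay, stood at 10.7, 10.4 and 10.7 FPKM in knockout and 15.1, 14.4 and 13.3 FPKM in WT (log2 fold change -0.42, limma adjusted p = 0.00124). The fifth, DDX6, a central helicase of mRNA storage and decay that was named after its values were seen, had a log2 fold change of -0.33 and was not called after GC correction.

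DHX29, which aids the scanning of structured leaders by the small ribosomal subunit, was less certain. It measured 5.83, 7.44 and 6.88 FPKM in knockout and 7.48, 11.6 and 10.5 FPKM in WT, so the highest knockout value lay just below the lowest WT value. Its log2 fold change of -0.53 had a standard error of 0.16 (limma adjusted p = 0.0230). Without knockout replicate 1 or 3, or WT replicate 2 or 3, the adjusted p was 0.0564 to 0.0844, and with GC correction it was 0.145 (log2 fold change -0.23). In limma without trend and robust moderation it was 0.0668.

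Ribosome synthesis was the role with the most members. Of its 16 genes 10 fell, 0 rose and 6 were not called (31.7% lower and 21.6% higher among all genes of at least 1 FPKM), with a median log2 fold change of -0.32. DDX47, which acts in the maturation of pre-rRNA, led the list with 45.2, 43.6 and 44.7 FPKM in knockout and 71.8, 70.2 and 65.1 FPKM in WT. The knockout mean was 64.4% of the WT mean (log2 fold change -0.63, SE 0.05, adjusted p = 6.2e-05 by limma). The gene span of DDX47 overlaps that of APOLD1 on the same strand by 16660 bases. How reads of this pair were assigned is not given. DDX52, a factor of the small subunit precursor, was 9.91, 10.3 and 10.2 FPKM in knockout and 13.9, 15.7 and 16.4 FPKM in WT (log2 fold change -0.59, limma adjusted p = 0.000391). DHX33, a nucleolar helicase of rRNA transcription, measured 19.98, 19.3 and 19.3 FPKM in knockout and 27.7, 29.4 and 29.2 FPKM in WT (log2 fold change -0.56, limma adjusted p = 0.000107). Its span overlaps that of C1QBP on the same strand by 7919 bases, with the same uncertainty. DDX18, a factor of the large subunit precursor, was 32.2, 32.2 and 32.4 FPKM in knockout and 41.7, 52.2 and 48.2 FPKM in WT (log2 fold change -0.55, limma adjusted p = 0.00066). After GC correction the value of DDX52 was -0.28 and that of DDX18 was -0.23. In these 4 genes the WT libraries spread more than the knockout libraries and did not reach down to them. At the other end, the nucleolar DDX54 had the highest log2 fold change of the role. It measured 58.3, 56.1 and 61.7 FPKM in knockout and 57.1, 51.0 and 53.3 FPKM in WT. Its groups overlapped (log2 fold change 0.13, ± 2 standard errors from 0.01 to 0.24, limma adjusted p = 0.112). It was called higher with median scaling (0.26) or without WT replicate 1, and with GC correction the value was -0.03 (adjusted p = 0.633).

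Splicing had 11 members, 6 lower, 1 higher and 4 not called (against the same 31.7% and 21.6%), with a median of -0.27. DDX46, which helps the U2 snRNP bind the branch site, was 22.2, 22.8 and 22.1 FPKM in knockout and 28.1, 32.7 and 30.5 FPKM in WT. It had the largest fall of the role (log2 fold change -0.44, limma adjusted p = 0.000742), which after GC correction was -0.11 (adjusted p = 0.0908). The span of DDX46 overlaps that of C5orf24 on the same strand by 9454 bases, and how their reads were assigned is not given. DDX23, a helicase of the U5 snRNP that acts when the spliceosome is activated, moved the other way. It measured 63.0, 62.6 and 62.5 FPKM in knockout and 53.5, 49.1 and 50.9 FPKM in WT, without overlap. The rise was to 123% of the WT mean (log2 fold change 0.29, SE 0.05, adjusted p = 0.00134 by limma). It held in all alternatives except the test against a log2 fold change above 0.2.

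DDX39B and DDX39A are near-identical helicases that act in splicing and load the export machinery onto mRNA. DDX39B was the most abundant member of the family, at 251, 236 and 251 FPKM in knockout and 328, 314 and 288 FPKM in WT. DDX39A stood at 90.4, 78.6 and 84.0 FPKM in knockout and 113, 107 and 99.3 FPKM in WT. Both fell, DDX39B by 0.33 and DDX39A by 0.34 on the log2 scale (limma adjusted p = 0.00144 and 0.00336), and neither was called with median scaling (limma adjusted p = 0.0826 and 0.0970).

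Export through the nuclear pore was represented by DDX19A and DDX19B, which release mRNA from its export factor on the cytoplasmic side. DDX19B measured 9.53, 9.74 and 10.4 FPKM in knockout and 8.25, 7.04 and 6.85 FPKM in WT, and all knockout values were above all WT values. It had the largest rise of the family (log2 fold change 0.42, SE 0.09, adjusted p = 0.00443 by limma), to 134% of the WT mean. DDX19A was 31.9, 28.9 and 32.4 FPKM in knockout and 29.7, 30.5 and 30.2 FPKM in WT, with overlapping groups (log2 fold change 0.04, ± 2 standard errors from -0.07 to 0.16, limma adjusted p = 0.593). The genes share long stretches of sequence, and fragments of the one could have been counted for the other.

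Of the mitochondrial helicases, DDX28, which acts in assembly of the mitochondrial ribosome, was 12.6, 10.7 and 11.8 FPKM in knockout and 18.2, 19.0 and 14.4 FPKM in WT. It fell without overlap (log2 fold change -0.54, SE 0.11, adjusted p = 0.00382 by limma). The gene lies inside DUS2 on the opposite strand, and without a stated strand setting reads of the pair cannot be told apart. DHX30, a relative of YTHDC2 that also acts in mitochondrial translation, was 92.7, 87.4 and 94.7 FPKM in knockout and 104, 90.0 and 89.2 FPKM in WT. Its groups overlapped (log2 fold change -0.04, ± 2 standard errors from -0.17 to 0.09, limma adjusted p = 0.661), while after GC correction it was called lower at -0.18 (adjusted p = 0.0183).

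DDX11 carries a DDX symbol but is a DNA helicase with an iron-sulphur cluster. It measured 16.3, 16.1 and 15.3 FPKM in knockout and 15.96, 16.8 and 17.5 FPKM in WT (log2 fold change -0.07, ± 2 standard errors from -0.20 to 0.05, limma adjusted p = 0.356). The groups overlapped, and near-identical copies of this gene make its level uncertain.

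Among 4 little characterised members, 2 rose, 1 fell and 1 was not called. DDX59 was 5.76, 5.94 and 5.62 FPKM in knockout and 4.49, 4.58 and 4.35 FPKM in WT, a rise without overlap (log2 fold change 0.36, SE 0.08, adjusted p = 0.00508 by limma, and 0.55 after GC correction). DHX40 was 40.6, 41.9 and 40.8 FPKM in knockout and 31.9, 35.9 and 37.8 FPKM in WT (log2 fold change 0.23, SE 0.07, adjusted p = 0.0200 by limma). The DHX40 call was lost without any 1 of the knockout libraries (adjusted p = 0.0533 to 0.0635), with FPKM rescaled to a common total (adjusted p = 0.106) and when limma ran without its trend and robust options (adjusted p = 0.0672), and after GC correction the value was 0.52. DHX57, the remaining relative of YTHDC2, was 12.4, 12.9 and 12.5 FPKM in knockout and 14.5, 14.2 and 15.5 FPKM in WT. Its fall (log2 fold change -0.22, limma adjusted p = 0.0173) was -0.02 after GC correction and -0.09 with median scaling, neither of them called, and it was also not called with quantile normalization (adjusted p = 0.0549) or without knockout replicate 1 or 3 or WT replicate 3 (adjusted p = 0.0575 to 0.0665). Of the 6 relatives of YTHDC2 named above, 5 were thus called lower and DHX30 was not, against 31.7% of all genes of at least 1 FPKM. With GC correction 4 were called lower, DHX9, DHX36, DHX34 and DHX30, against 18.7% of all genes.

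The 4 germline helicases DDX4, DDX25, DDX43 and DDX53 all averaged below 1 FPKM. DDX25, known from the testis, was the 1 member past both thresholds, at 0.0147, 0.0301 and 0.0154 FPKM in knockout and 0.329, 0.262 and 0.109 FPKM in WT. These values correspond to 1, 2 and 1 recovered fragments in knockout and 20, 16 and 6 in WT. The groups did not overlap, and the fitted log2 fold change was -1.41 (SE 0.27, adjusted p = 0.00319 by limma). Per fragment of depth the ratio of the 4 knockout fragments to the 42 WT fragments was 0.0844, with an exact Clopper-Pearson interval of 0.0220 to 0.233 at 95% confidence that covers counting error only. At so low a level the fitted value depends on the pseudocount, and the log2 fold change was -0.27 with a pseudocount of 1 FPKM and -3.07 with voom on the recovered fragments. DDX4, DDX43 and DDX53 were each above 0 in some libraries and at no more than 0.0810 FPKM in any library.

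Paralogous helicases were compared within each library, which removes differences in scaling between libraries. For DDX17 to DDX5 the log2 ratio was -0.07 ± 0.06 in knockout and -0.10 ± 0.05 in WT (± SD over 3 libraries, p = 0.7 by a two-sided exact permutation test), so the difference of 0.03 was within the spread between libraries. The ratio of DDX39A to DDX39B was -1.54 in both groups (difference -0.01, exact permutation test, p = 1). For DDX19B to DDX19A the log2 ratio was -1.65 ± 0.09 in knockout and -2.03 ± 0.16 in WT, without overlap (difference 0.38, exact permutation test, p = 0.1, the smallest possible, and 0.2 after Benjamini-Hochberg adjustment over the 4 pairs). The ratio of DDX50 to DDX21 also did not overlap, at -2.86 ± 0.05 in knockout and -3.06 ± 0.11 in WT (difference 0.20, exact permutation test, p = 0.1, adjusted 0.2). DDX21, a nucleolar helicase of rRNA transcription and processing, was 80.7, 84.9 and 83.7 FPKM in knockout and 95.1, 118 and 109 FPKM in WT (log2 fold change -0.36, limma adjusted p = 0.00399, and -0.23 with median scaling and -0.08 after GC correction, adjusted p = 0.196). DDX50, its neighbour on chromosome 10, was 11.5, 11.7 and 11.1 FPKM in knockout and 11.6, 13.0 and 13.96 FPKM in WT, with overlap (log2 fold change -0.17, ± 2 standard errors from -0.32 to -0.01, limma adjusted p = 0.111, and 0.0165 without WT replicate 1).

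**Figure D4:**
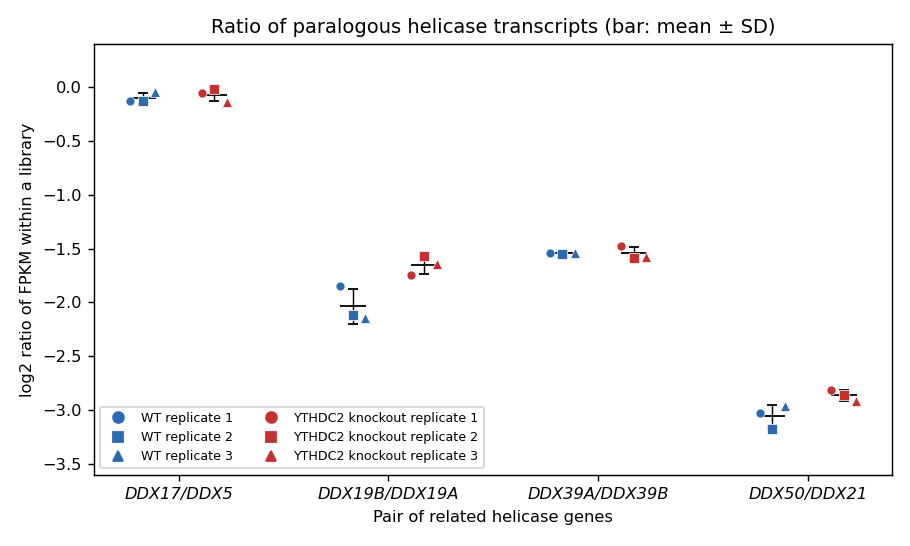
Log2 ratio of the FPKM of 2 related helicase genes within a library (y axis) for 4 pairs (x axis), in 3 WT (blue) and 3 knockout (red) libraries, with bars for the mean ± SD. The groups overlap for DDX17/DDX5 and DDX39A/DDX39B and are apart for DDX19B/DDX19A and DDX50/DDX21.

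GC content moved with the fold changes of the table as a whole. Across 11096 genes of at least 1 FPKM, the fold change and the GC content of the longest coding transcript had a Pearson r of 0.50 and a Spearman rho of 0.57. Across the 46 members these were 0.22 and 0.31, given as a description since the genes share libraries and are not independent. The members were close to the other genes in GC content, with a median of 48.6% against 49.1%. Below 45% GC, 16 of 20 members were lower and 2 higher, against 53.8% of all genes lower, with medians of -0.36 and -0.30. Without a split by GC content, 21.6% of all genes of at least 1 FPKM were called higher. From 45% to 55%, 6 of 13 members were lower and 2 higher, against 29.9% of all genes lower. Above 55%, 6 of 13 members were lower and 0 higher, against 9.63% of all genes lower. The medians there were -0.19 for the members and 0.19 for all genes. DDX28, DHX34 and DDX56, a nucleolar helicase named after its values were seen, were among these 6.

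The proteins that work with these helicases were described from lists of known partners. Over all genes tested 26.2% were lower and 16.6% higher. The genes of these lists all averaged at least 1 FPKM, and at that level the background was 31.7% lower and 21.6% higher. Of 20 partners of the splicing helicases 11 fell, 4 rose and 5 were not called, with a median log2 fold change of -0.29. They ran from CWC22, which joins the exon junction helicase eIF4A3 to the spliceosome, at -0.90 to SF3B3, a subunit of the U2 snRNP, at 0.31. Of 16 export and exon junction factors 9 fell and 0 rose. THOC1, a core subunit of the THO complex with which DDX39B works, was 3.30, 3.71 and 3.47 FPKM in knockout and 6.93, 8.16 and 6.94 FPKM in WT and passed both thresholds (log2 fold change -1.05, limma adjusted p = 9.77e-05). Of 17 ribosome synthesis factors 9 fell and 2 rose. They included NOP58, a core protein of box C/D snoRNPs, which passed both thresholds (log2 fold change -1.02, limma adjusted p = 0.000185), and FBL, the methyltransferase of the same particles, which rose by 0.25 (limma adjusted p = 0.00352).

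Of 14 factors of mRNA decay and translation 9 fell and 3 rose, from PATL1, a partner of DDX6, at -0.75 to the helicase UPF1 at 0.30, and with GC correction 2 fell and 2 rose (18.7% and 18.8% of all genes). Of 8 genes of the SMN complex, in which DDX20 works, 2 fell and 1 rose, shares near those of all genes. The 1 that rose was GEMIN8 (log2 fold change 0.50, limma adjusted p = 0.0155). The values of SMN1 and SMN2, which are nearly the same in sequence, are uncertain. With GC correction the splicing partners counted 10 lower and 4 higher, the export factors 9 and 3, and the ribosome synthesis factors 9 and 2. With median scaling (16.3% and 23.5% of all genes) the lower and higher counts were 8 and 4 for splicing, 5 and 1 for export, 7 and 2 for ribosome synthesis and 6 and 4 for decay and translation.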

How the data were processed

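RNA was sequenced from 3 YTHDC2 knockout and 3 WT libraries labelled H1975. The authors deposited FPKM values per gene and library, made with genome build GRCh38.p13. Strand setting, aligner, counter and annotation: not given in the sources used here. Of the members, 18 overlap another gene of the table. Libraries were grouped by labelled genotype.

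Genes had to exceed 0 FPKM in 3 or more of the 6 libraries, which left 15441. They were tested on the log2(FPKM + 0.1) scale with limma 3.58.1 (R 4.3.3, trend and robust moderation), Benjamini-Hochberg adjusted over the whole set, at an adjusted p under 0.05, with or without an absolute log2 fold change above 1. This scale understates changes of genes near 0.1 FPKM. Whole fragments were recovered from the FPKM steps within 0.0002 plus 2e-08 per fragment. In simulated data 98.0% of 16398 genes returned exactly. In simulated data for the limma fit (15426 genes), 42 of 48 genes at a log2 fold change of -0.5, 47 of 50 at 0.5 and 9 of 15229 unchanged genes were called. The simulation gave every gene the same normal spread (SD 0.124 on the log2 scale), changed few genes and held no GC trend. Its rates therefore need not hold for the real libraries, where the spread differs by gene and many genes were called.

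GC content, exons and coding sequences came from GENCODE 29 (99.08% of symbols matched). The GC correction subtracted a lowess curve (span 0.3) from each library. Tables were made in Python 3.11.15 with scipy 1.17.1, pandas 2.3.3 and numpy 2.4.6. Alternatives were pseudocounts of 0.01 and 1, no filter, a mean of at least 1 FPKM, median scaling, quantile normalization, a common total, GC correction, limma without trend and robust moderation, voom on recovered fragments, a replicate block, treat at 0.2 and leaving out each library.

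Members, roles and partner lists were chosen with earlier results of these data known. Genes named were YTHDC2, members past both thresholds, up to 8 in each direction with the largest changes at 1 FPKM or more, paralog pairs, relatives of YTHDC2, the 3 most abundant members, and the extremes of each role. Of the partner lists, the extremes and the genes past both thresholds were named.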

Additional observations from a re-analysis of the deposited data

How the results depend on the processing

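No call of a helicase named by rule changed direction. Over these helicases, YTHDC2 not counted, and the alternatives in which each was tested, 528 values kept their side of the threshold, 40 fell short of it and 4 passed it anew. Tested against a log2 fold change of 0.2 (treat), 18 members were lower and 0 higher, and 1712 and 1090 of all genes. Past both thresholds 0 members were lower with a pseudocount of 1 or a mean of at least 1 FPKM. The count of all genes lower at an adjusted p under 0.05 was 2515 with median scaling. All genes lower past both thresholds were 505 with a pseudocount of 0.01, 69 with a pseudocount of 1, 479 with voom and 126 with the filter at 1 FPKM. All genes higher past both were 184 and 29 with these pseudocounts, 209 with median scaling, 195 with quantile normalization and 72 with GC correction. The members' median log2 fold change was -0.33 with a pseudocount of 0.01 and with voom, -0.15 with median scaling, -0.34 with FPKM rescaled to a common total and -0.17 with GC correction. The ratio of summed helicase FPKM, knockout to WT, was 0.762 with a common total. The log2 fold change of YTHDC2 ran from -2.81 without WT replicate 1 to -0.84 without WT replicate 3, where it passed the test (adjusted p = 0.00223). The causes were not tested.

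Leaving out 1 library gave 26 to 30 members lower and 3 to 5 higher. Of all genes, 19.6% to 28.8% were called lower and 12.8% to 18.02% higher in these fits. With the replicate number as a block, 29 members were lower and 4 higher, the same counts as without it (27.4% and 17.1% of all genes). Deviations of same-numbered libraries correlated at 0.0762, 0.0186 and -0.0239, against -0.111 to 0.0924 for other pairs. With 3 libraries in a group these correlations depend on one another and cannot show whether the libraries were paired. Depth limits DDX25, the 1 called member below 1 FPKM, which had 4 fragments in the knockout group.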

Other observations

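Of 6 relatives of the family that have no DDX or DHX symbol, 1 was called lower and 0 higher, against 26.2% and 16.6% of all genes tested. EIF4A1, the helicase that opens mRNA leaders for the ribosome, was more abundant than any member, at 762, 746 and 758 FPKM in knockout and 891, 801 and 794 FPKM in WT. The groups did not overlap, yet the difference was not called (log2 fold change -0.13, limma adjusted p = 0.0560). EIF4A2 and EIF4A3 had log2 fold changes of 0.00 and 0.06 and overlapping groups, and EIF4A3 is the helicase of the exon junction complex. TDRD12, a germline helicase of the piRNA pathway, was the relative called lower, at 0.270, 0.191 and 0.218 FPKM in knockout and 0.398, 0.532 and 0.373 FPKM in WT (log2 fold change -0.71, limma adjusted p = 0.0185). With GC correction 0 of the 6 were lower and 1 was higher, against 18.7% and 18.8% of all genes. These 6 genes were not tested against the members as a group.

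Transcripts were also searched on the coding strand for AAACU or AGACU or else GAACU or GGACU, written as RNA, which are forms of the motif in which m6A is deposited. Members averaging at least 1 FPKM held a median of 4.49 per kilobase, against 4.29 for all such genes. Across the 46 members, the number per kilobase and the log2 fold change had a Pearson r of -0.14 and a Spearman rho of -0.25, and across 11096 genes -0.29 and -0.33, as a description. A match is not a measured m6A site.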
